A study of Mus musculus with 4 samples.

Results

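Gingiva of Itga9-Lyz2-cKO and Itga9-Lyz2-cHet mice with experimental periodontitis was compared by single-cell transcript counts. The 2 libraries, called cKO PD and cHet PD here, came from gingiva taken 14 days after a silk ligature and Porphyromonas gingivalis were placed at the upper second molar. The labels give no dose, age or sex, and no number of animals per library. They describe the mice as transgenic, name the genotypes cKO and cHet, and do not state which promoter drove recombination or which part of Itga9 was removed. Barcodes with at least 200 genes and at most 20% mitochondrial transcripts were kept, which left 6595 cells in cKO PD and 8967 in cHet PD, 15562 of the 31150 kept cells of the series. The cKO control and cHet control libraries, with 7673 and 7915 kept cells and the same genotype names without the PD treatment, are set beside them where a value needs a background. Within each library, 4 overlapping gates were read: at least 5 transcripts of the basal keratins Krt5 and Krt14 (keratinocyte gate), at least 2 of the endothelial junction genes Pecam1 and Cdh5, at least 10 of the collagens Col1a1 and Col3a1 (collagen gate), and at least 1 of the leukocyte gene Ptprc. Cells of the Ptprc gate were divided by marker transcripts into 4 classes. These were a granulocyte class (at least 10 transcripts of 12 genes such as S100a8 and Camp) and a phagocyte class (at least 3 of genes such as Csf1r, C1qa and Mrc1). The others were a T and natural killer class (T/NK, at least 2 of genes such as Cd3e and Nkg7) and a B or plasma class (at least 3). Each cell took the class whose marker count was highest relative to the minimum of that class. Cells with a tie or below every minimum stayed unclassed.

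Integrin α9β1 is a heterodimer of the Itga9 and Itgb1 products that binds matrix proteins such as tenascin-C and osteopontin, and also the adhesion molecule Vcam1. Lyz2 encodes a lysozyme made by monocytes, macrophages and granulocytes, and the Lyz2 locus is widely used to direct recombination to those cells. In periodontitis, bacteria at the tooth surface draw neutrophils and monocytes into the gingiva, and cytokines of leukocytes, fibroblasts and epithelium steer osteoclasts that resorb the alveolar bone. Interferons, made by leukocytes and stromal cells on sensing microbes, raise a common set of genes in the cells that receive them.

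The list of such interferon-response genes had a median below 0 in cKO PD in every gate and class where it was read, so promoter stretches of 5 of its genes are shown. Each was called lower, by the rule given below, in 3 to 6 of the gates and classes. Sequences are RefSeq reference bases of the GRCm38.p6 build, read 5′ to 3′ on the strand of the gene. Capitals mark each match to GAAANNGAAA on either strand (TTTCNNTTTC on the other), the letters of the classical interferon-stimulated response element. Each stretch reaches 30 bases beyond its matches.

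Ifit1, which binds foreign RNA, chr19:34640755-34640843 (plus strand, bases 134 to 46 before the start): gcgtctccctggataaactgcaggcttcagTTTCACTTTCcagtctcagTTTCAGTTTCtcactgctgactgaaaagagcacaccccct
Rsad2, the antiviral enzyme viperin, chr12:26456533-26456602 (minus strand, bases 150 to 81 before the start): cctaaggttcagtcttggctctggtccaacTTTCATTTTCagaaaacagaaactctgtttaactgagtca
Gbp7, a guanylate-binding protein, chr3:142530253-142530322 (plus strand, bases 83 to 14 before the start): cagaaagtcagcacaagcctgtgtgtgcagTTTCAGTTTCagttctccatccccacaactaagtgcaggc
Ifit3, a partner of Ifit1, chr19:34583343-34583446 (plus strand, bases 186 to 83 before the start): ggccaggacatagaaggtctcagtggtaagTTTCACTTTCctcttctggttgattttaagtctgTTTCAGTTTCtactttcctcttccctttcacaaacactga
Ifi205, of the DNA-sensing Ifi200 family, chr1:174031850-174031919 (minus strand, bases 164 to 95 before the start): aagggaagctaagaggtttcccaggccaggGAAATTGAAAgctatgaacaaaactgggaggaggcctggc

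Of the 50 genes on the interferon list, 37 had a promoter entry in RefSeq, and 19 of these (51.4%) held a match in the 250 bases before the start. Of all 27025 genes with an entry, 936 (3.46%) held one. A match describes the letters of the window and is no evidence of binding.

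With 1 library per group, differences between the genotypes could not be tested against a spread between animals, and p-values are left out. Transcripts were counted by unique molecular identifier (UMI) and summed over the cells of a gate or class, then given as counts per 1000000 UMIs of that gate or class (CPM). All intervals are exact 95% intervals for counting error only. A gene was called where it stood at least 2-fold apart with 10 CPM added to both sides, held at least 50 UMIs in 1 of the libraries, and had an interval that excluded a ratio of 1. Folds below are ratios of CPM. Members of gene lists were measured with at least 20 UMIs in 1 library and were counted from 1.5-fold with 10 CPM added, and their median log2 ratio (cKO to cHet, 10 CPM added) stands beside that of all measured genes. Genes that defined a gate or class are left out of its lists and of its named genes. Over all kept cells 1.78% of 12889 genes were called higher in cKO PD and 0.869% lower, and at 1.5-fold 4.19% and 2.93% of 14593 measured genes.

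The libraries held 21128076 UMIs in cKO PD and 36020279 in cHet PD, with a median of 2520 and 2967 UMIs per cell and the same lowest total of 500 per barcode. The control libraries had been deposited with a lowest total of 1501, so differences between PD and control libraries are not read, and control values only stand beside the others. The PD libraries shared 80 barcode sequences, 1.2% of the smaller library. Leaving these out moved no count, list or share by more than its allowed spread. Of the single-gene log2 ratios checked, 5 moved outside their counting interval, 113 did not and 0 reversed. All 4 libraries carried Y-linked transcripts, with Ddx3y at 116 CPM in cKO PD and 109 CPM in cHet PD, and Xist had 0 UMIs in both PD libraries. Transcripts of tissues beside the gingiva differed between the libraries. Markers of salivary and nasal gland summed to 551 against 16.5 CPM, with 9 and 4 of 16 markers detected, and in cKO control and cHet control to 9102 and 315 CPM. The gene Scgb2b27 alone stood at nearly the PD sums, 548 against 16.2 CPM. In cKO control and cHet control it was at 494 and 308 CPM. A list of airway markers summed to 591 against 56.7 CPM, and in the control libraries to 1795 and 549.5 CPM. Cyp2f2 alone stood at nearly these levels, 590 against 55.1 CPM, and 1755.5 and 544 CPM in the control libraries. These sums are therefore not read as the presence of a cell type. Car6, a secreted carbonic anhydrase of salivary gland, gave 88130 UMIs against 2218. It was found in 12.3% to 15.4% of cells of each gate in cKO PD and in at most 0.408% in cHet PD, where the keratinocyte gate was highest. In the control libraries the range over the gates was 12.1% to 15.6%. Bone-forming markers (8 of 8 detected in both) summed to 112 against 26.7 CPM, and in cKO control and cHet control to 14.4 and 36.5 CPM. The part of these transcripts in the results below was not tested, and the values are given where they move with one.

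Itga9, the gene named by the genotypes (9:118606690-118901003, plus strand, mm10), stood lower in cKO PD within the phagocyte class, the monocytes and macrophages. Its level there was 16.1 CPM (7.35 to 30.5) in cKO PD and 79.1 CPM (63.8 to 96.9) in cHet PD, a ratio of 0.20 (0.09 to 0.40), from 9 and 93 UMIs. UMIs lay in 3 of 117 phagocytes (2.56%) of cKO PD and in 48 of 218 (22%) of cHet PD, at median depths of 3876 and 4743 UMIs. In the keratinocyte gate, taken as the background, 0.452% and 0.476% of cells held a UMI at median depths of 2871 and 4861.5. Thinned to 1000 UMIs per cell, 0 of 40 and 3 of 87 phagocytes held one, so the share was not resolved at that depth. In the control libraries the phagocyte levels were 32.5 CPM in cKO control and 80 CPM in cHet control. The transcripts were counted over the whole gene, and where the reads lie relative to the removed part is not given in the sources used here.

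The endothelial and collagen gates did not show Itga9 lower. In the endothelial gate it was at 69.5 CPM (55.8 to 85.5) in cKO PD and 42.7 CPM (35.3 to 51.3) in cHet PD. In the collagen gate it was at 66 CPM (49.7 to 85.9) and 12.3 CPM (7.63 to 18.9), called higher in cKO PD. With bone-forming and cartilage cells removed from that gate, the levels were 92.1 and 12.9 CPM, from 46 and 21 UMIs, under the minimum for a call. The control libraries gave 65.1 and 82.9 CPM in the whole collagen gate. The granulocyte class held 1 UMI in cKO PD and 0 in cHet PD, and the T/NK class 0 in both, so Itga9 could not be compared there. Itgb1, the partner subunit, was at 291 CPM in cKO PD and 414 CPM in cHet PD in phagocytes and was not called. In the whole Ptprc gate Itga9 was at 5.49 and 31 CPM. Over all kept cells Itga9 was at 9.23 and 7.11 CPM.

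**Figure D1:**
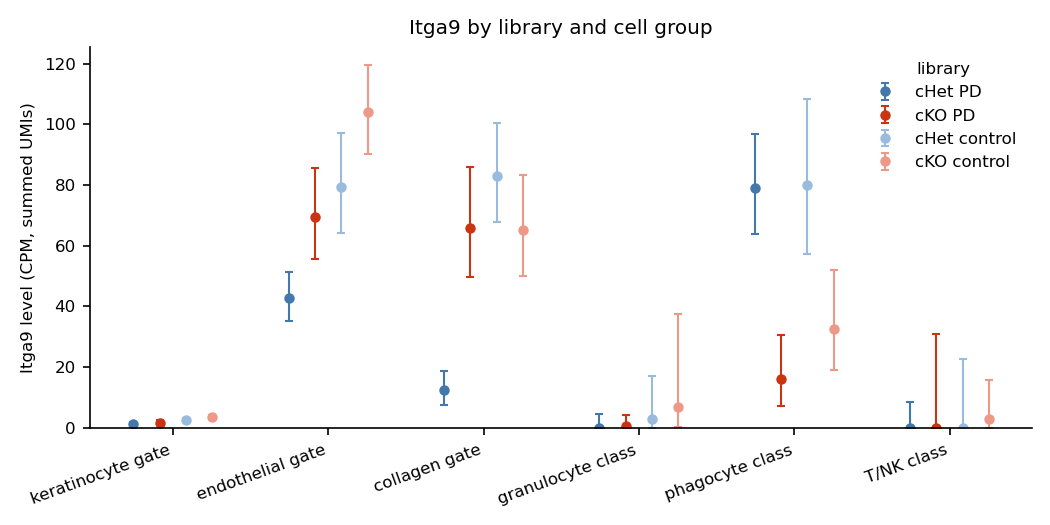
Itga9 level by gate and class in the 4 libraries (CPM, points with exact 95% counting intervals). In the phagocyte class cKO PD lies at 16.1 CPM and cHet PD at 79.1 CPM, while in the collagen gate cKO PD at 66 CPM lies above cHet PD at 12.3 CPM.

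The gates held similar shares of the 2 PD libraries apart from the endothelial one. Keratinocyte-gate cells made up 50.3% in cKO PD and 49.2% in cHet PD, a ratio of 1.02 (0.978 to 1.07). Ptprc-gate cells made up 12.4% in cKO PD and 12.5% in cHet PD, a ratio of 0.997 (0.91 to 1.09). Collagen-gate cells made up 3.4% in cKO PD and 3.91% in cHet PD, a ratio of 0.868 (0.731 to 1.03), whose interval includes 1. Endothelial-gate cells were the smaller part in cKO PD, 6.38% in cKO PD and 8.77% in cHet PD, a ratio of 0.728 (0.645 to 0.821). The control pair lay the other way for endothelium, with 3.84% and 2.19% in cKO and cHet control. No gate was met by 29.9% and 28.7% of the cells, and 2.46% and 2.99% met more than 1, and no doublet caller was run.

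Within the Ptprc gate the leukocytes of cKO PD were mostly granulocytes. The granulocyte class made up 65.2% in cKO PD and 43.7% in cHet PD, a ratio of 1.49 (1.32 to 1.69), and in the control pair 14.9% and 23.4%. Phagocytes made up 14.3% in cKO PD and 19.5% in cHet PD, a ratio of 0.732 (0.58 to 0.921), from 117 and 218 cells. T/NK cells made up 7.8% in cKO PD and 14.1% in cHet PD, a ratio of 0.553 (0.407 to 0.743), from 64 and 158 cells. Thinning every cell to 1000 UMIs, which left out 15.6% of cKO PD and 24.5% of cHet PD cells, gave 64.4% and 36.8% for granulocytes, 9.55% and 16.3% for phagocytes and 5.97% and 15.8% for T/NK cells, so the order of the libraries held. Cells that met the marker rule of the granulocyte class were also found outside the Ptprc gate. Over all kept cells they made up 24.9% of cKO PD and 14.1% of cHet PD, and among cells in no gate 747 of 1972 (37.9%) against 275 of 2576 (10.7%). Whether these cells are granulocytes was not tested. S100a8, one of the markers, was found in 31.9% and 42.6% of keratinocyte-gate cells. Cells that met the rule without a Ptprc UMI had a median of 2239 and 4820 UMIs, against 1670 and 1071 in the granulocyte class. The S100a8 level in the keratinocyte gate was 1353 CPM in cKO PD and 1187 CPM in cHet PD.

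**Figure D2:**
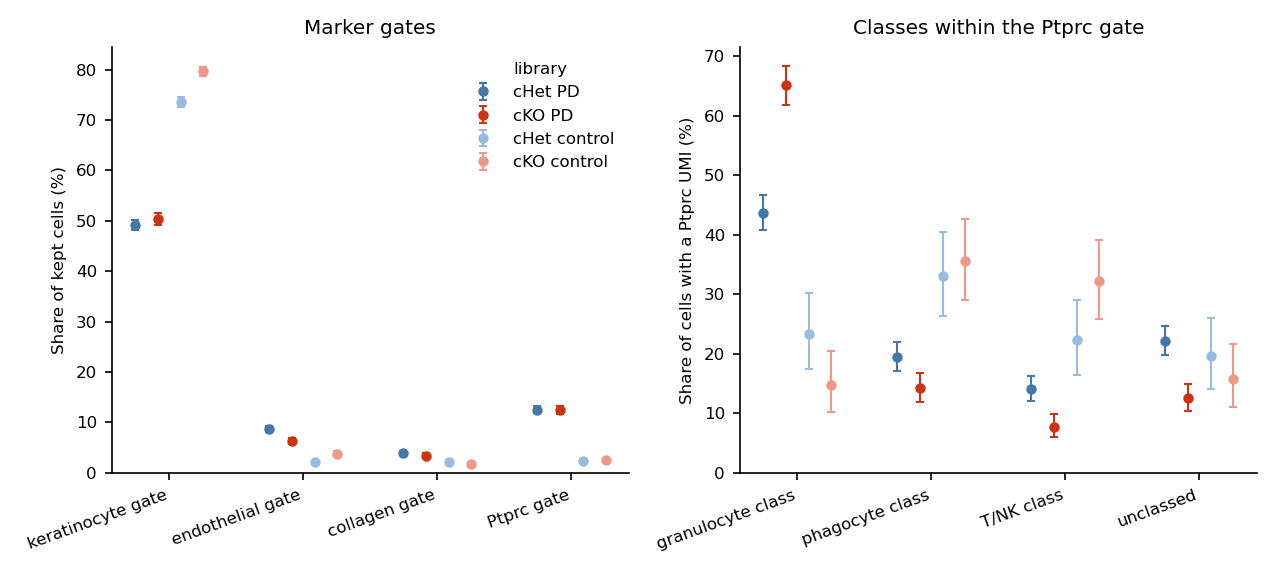
Share of each gate among kept cells and of each leukocyte class within the Ptprc gate, in percent with exact 95% binomial intervals, for the 4 libraries. Granulocytes take 65.2% and 43.7% of the gate in cKO PD and cHet PD, and the endothelial gate 6.38% and 8.77% of kept cells.

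Interferon-response genes as a list had a median below 0 in cKO PD in every gate and class read and under every processing alternative. The B or plasma class, with 2 cells in cKO PD and 7 in cHet PD, was not read. The median was lowest in granulocytes. That the classes differ in this was not tested. In the granulocyte class 32 of 33 measured members were at least 1.5-fold lower and 0 higher, 19 of them called (median -2.06 against 0.11 for all measured genes). Among all genes of this class 10.4% of 3941 were called higher and 10.1% lower, and at 1.5-fold 21.3% and 17.9% of 6523. Rsad2, whose promoter stretch is shown above, was at 16.6 CPM in cKO PD and 869 CPM in cHet PD, 52.3-fold lower (33.9 to 85). Ifit1, with a pair of matches in its promoter, was at 7.91 CPM in cKO PD and 329 CPM in cHet PD, 41.5-fold lower (22.2 to 87.6). Oasl2, of the oligoadenylate synthetase family that senses double-stranded RNA, was at 14.2 CPM in cKO PD and 262 CPM in cHet PD, 18.4-fold lower (11.4 to 31.6). Rtp4, another interferon-induced gene, was at 7.91 CPM in cKO PD and 195 CPM in cHet PD, 24.7-fold lower (13.1 to 52.5). In the control granulocytes only 2 members reached 20 UMIs, so the list has no background there.

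In phagocytes 33 of 42 members were lower and 1 higher (median -1.02 against 0.09 for all measured genes, and 0.44 in the control pair). Here 3.72% of 3603 genes were called higher and 7.44% lower, and at 1.5-fold 16.6% and 13.9% of 6049. Phagocytes held 560049 UMIs in cKO PD and 1176306 in cHet PD, so genes lower in cKO PD reach the UMI minimum more easily. Gbp2, a GTPase that attacks vacuoles of intracellular microbes, was at 23.2 CPM in cKO PD and 172 CPM in cHet PD, 7.4-fold lower (4.23 to 14.1). Ifi205, whose promoter stretch is also shown, was at 25 CPM in cKO PD and 184 CPM in cHet PD, 7.35-fold lower (4.28 to 13.7). Rsad2 was less far apart here, at 245 CPM in cKO PD and 389 CPM in cHet PD, and was not called. In T/NK cells 14 of 18 members were lower (median -1.31, all measured genes -0.09), but only 2 were called in that small class. Here 0.667% of 1649 genes were called higher and 5.52% lower, and at 1.5-fold 9.19% and 20.5% of 3872.

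Endothelium showed the same direction. Of 44 measured members 36 were lower and 0 higher, 21 of them called (median -0.997, all measured genes -0.04, control pair 0.13). The endothelial background was 1.36% of 6680 genes called higher and 2.29% lower, and at 1.5-fold 4.6% and 6.5% of 9335. Rsad2 was at 218 CPM in cKO PD and 1003 CPM in cHet PD, 4.61-fold lower (4.07 to 5.23), and in the control pair at 51.1 and 50.4 CPM. Ifit1 was at 159 CPM in cKO PD and 639 CPM in cHet PD, 4.01-fold lower (3.47 to 4.66). Cxcl9, a chemokine that draws T cells, was at 15.6 CPM in cKO PD and 212 CPM in cHet PD, 13.6-fold lower (8.72 to 22.4). Cxcl10, which acts on the same receptor, was at 291 CPM in cKO PD and 1056 CPM in cHet PD, 3.63-fold lower (3.26 to 4.05). Cd274, the checkpoint ligand PD-L1 and also interferon-induced, was at 61.7 CPM in cKO PD and 353 CPM in cHet PD, 5.72-fold lower (4.55 to 7.3). In granulocytes the same gene was at 39.6 CPM in cKO PD and 468 CPM in cHet PD, 11.8-fold lower (8.8 to 16.2).

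The list was also lower in the stroma and the epithelium. In the collagen gate 28 of 36 members were lower and 0 higher (median -1.01, all measured genes -0.13, control pair 0.27). In the whole gate 3.26% of 5161 genes were called higher and 5.15% lower, and at 1.5-fold 7.43% and 14.1% of 8128. Without bone-forming and cartilage cells the count was 22 of 36 (median -0.76). Here 2.12% of 4953 genes were called higher and 4.6% lower, and at 1.5-fold 8.7% and 12.1% of 7883. These cells held 499256 UMIs in cKO PD and 1626125 in cHet PD, so genes lower in cKO PD reach the UMI minimum more easily. In the keratinocyte gate 12 of 46 were lower and 0 higher (median -0.35, all measured genes 0.03, control pair 0.13). With 1 CPM added in place of 10, which shrinks low levels less, the keratinocyte median was -0.94. Ifit1 in that gate was at 8.08 CPM in cKO PD and 54.9 CPM in cHet PD, 6.8-fold lower (5.5 to 8.49). Here 0.515% of 11059 genes were called higher and 0.669% lower, and at 1.5-fold 2.33% and 2.27% of 12666. Over all kept cells 31 of 47 were lower (median -0.74), where fewer cells of a type and less transcript per cell cannot be told apart. Rsad2 there was at 31.6 CPM in cKO PD and 155 CPM in cHet PD, 4.89-fold lower (4.51 to 5.31).

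**Figure D3:**
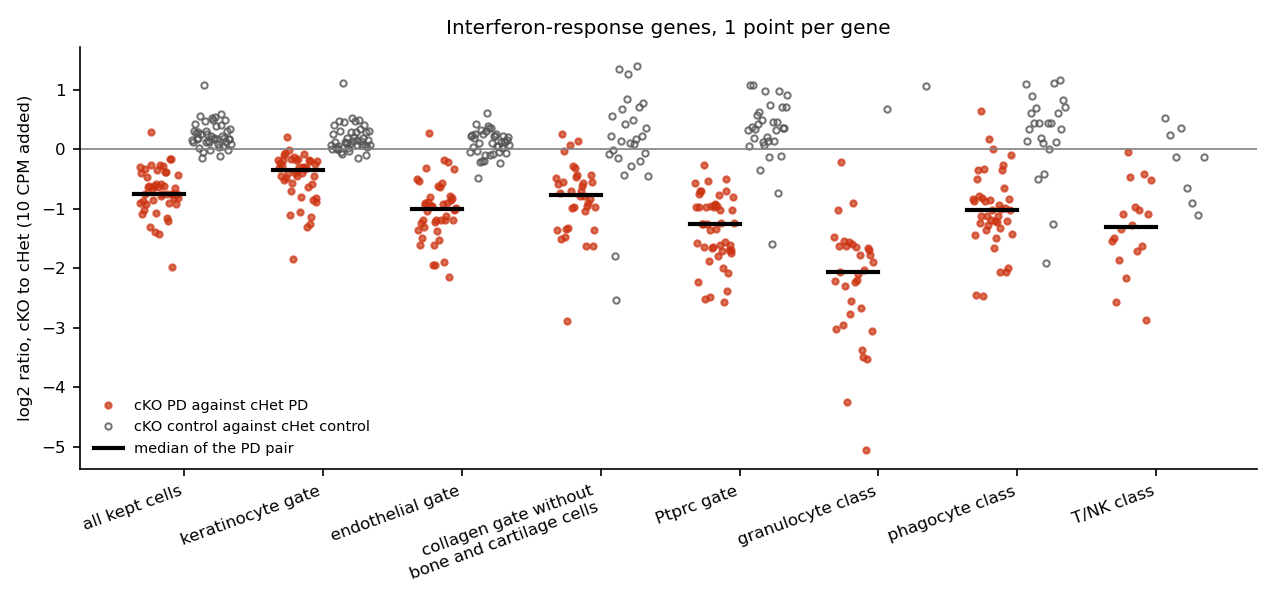
Log2 ratio of each measured interferon-response gene (cKO to cHet, 10 CPM added) by gate and class, red points for the PD pair and open points for the control pair. Black bars mark the PD medians, which run from -0.35 in the keratinocyte gate to -2.06 in granulocytes, while the control medians run from -0.13 in T/NK cells to 0.44 in phagocytes, leaving out granulocytes with 2 control points.

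The granulocytes of cKO PD held more granule transcripts, and those of cHet PD more transcripts of the mature neutrophil and cytokine lists. Secondary and tertiary granule genes, made while neutrophils mature in the bone marrow, were higher in 10 of 13 and lower in 0 (median 1.55, 8 called). Chil3, a chitinase-like protein of immature neutrophils and monocytes, was at 3744 CPM in cKO PD and 316 CPM in cHet PD, 11.8-fold higher (10.4 to 13.5). Cybb, the catalytic subunit of the oxidase that makes superoxide, was at 3493 CPM in cKO PD and 431 CPM in cHet PD, 8.1-fold higher (7.26 to 9.06). Lcn2, which withholds iron from bacteria, was at 5288 CPM in cKO PD and 1794 CPM in cHet PD, 2.95-fold higher (2.78 to 3.12). Fcnb, a ficolin of early neutrophils, was at 134 CPM in cKO PD and 18.5 CPM in cHet PD, 7.21-fold higher (4.25 to 13.2). The 3 measured primary granule genes were all higher (median 1.87). Cell cycle genes were higher in 24 of 34 and lower in 1 (median 0.88), with the proliferation gene Mki67 at 486 CPM in cKO PD and 90.2 CPM in cHet PD, 5.39-fold higher (4.22 to 6.96). Lta4h, which makes the neutrophil attractant leukotriene B4, was at 450.1 CPM in cKO PD and 65.5 CPM in cHet PD, 6.87-fold higher (5.18 to 9.29).

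The control pair lay opposite for these groups. Its medians were -0.92 for secondary and tertiary granules and -1.48 for the cell cycle, from 30 and 43 cells. Chil3 was at 500.3 CPM in cKO control and 5937 CPM in cHet control. Of the 409 genes called higher in cKO PD granulocytes, 167 could be tested in the control pair, where 4 were called the same way and 64 the opposite way. Of the 399 called lower, 83 could be tested there, with 1 called the same way and 42 the opposite way.

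Mature neutrophil genes were lower in 12 of 19 and higher in 2 (median -0.74). The control pair lay opposite here too, with 16 of 21 higher, 0 lower and a median of 1.48. Wfdc17, a small secreted inhibitor of activated myeloid cells, was at 25.3 CPM in cKO PD and 563 CPM in cHet PD, 22.3-fold lower (15.5 to 32.9). Ptgs2, the inducible prostaglandin synthase, was at 40.3 CPM in cKO PD and 331 CPM in cHet PD, 8.21-fold lower (6.06 to 11.3). Acod1, which makes itaconate, was at 1157 CPM in cKO PD and 6764 CPM in cHet PD, 5.84-fold lower (5.52 to 6.2). Ccrl2, a chemerin-binding receptor, was at 140 CPM in cKO PD and 950.1 CPM in cHet PD, 6.79-fold lower (5.76 to 8.04). Inflammatory cytokines were lower in 9 of 12 and higher in 2 (median -1.44), while the 5 measured in the control pair were all higher (median 1.21). Il1b, the interleukin-1 that drives fever and bone loss, was at 818 CPM in cKO PD and 3131 CPM in cHet PD, 3.83-fold lower (3.56 to 4.12). Il1rn, its natural antagonist, was at 1260.2 CPM in cKO PD and 4660.3 CPM in cHet PD, 3.7-fold lower (3.49 to 3.92). Tnfsf14, the cytokine LIGHT, was at 19.8 CPM in cKO PD and 167 CPM in cHet PD, 8.43-fold lower (5.47 to 13.5). Tnf was at 88.6 CPM in cKO PD and 235 CPM in cHet PD, 2.65-fold lower (2.09 to 3.38). Cxcl2, which draws further neutrophils, was at 1401 CPM in cKO PD and 5176 CPM in cHet PD, 3.69-fold lower (3.49 to 3.91). The NF-kB feedback and bacterial sensing list was lower in 19 of 28 (median -0.92) and immediate early genes in 24 of 36 (median -0.88). Their control medians were 0.79 and 1.20, again opposite. Itgam, the complement-receptor integrin CD11b, was at 1314 CPM in cKO PD and 392 CPM in cHet PD and Itgax, CD11c, at 13.4 and 145 CPM, so these integrins lay in opposite directions. Epithelial markers in this class summed to 2517 against 5865 CPM, phagocyte markers to 97.3 against 208 CPM and gland markers to 216 against 1.24 CPM. The granule gene Ngp was also found in 6.2% of keratinocyte-gate, 7.13% of endothelial-gate and 9.38% of collagen-gate cells of cKO PD. In cHet PD these shares were 0.385%, 0.509% and 0.57%. The part of such transcripts in the granulocyte differences was not tested.

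The phagocytes of cHet PD carried more transcripts of tissue-repair macrophages and of chemokines, and those of cKO PD more of the monocyte list. Lipid-associated and healing genes were lower in 20 of 25 and higher in 2 (median -1.42, control pair -0.05). Arg1, which removes arginine and marks wound macrophages, was at 33.9 CPM in cKO PD and 957 CPM in cHet PD, 28.2-fold lower (18 to 47). Pdpn, the membrane glycoprotein podoplanin, was at 102 CPM in cKO PD and 1275 CPM in cHet PD, 12.5-fold lower (9.62 to 16.6). Spp1, which encodes the α9β1 ligand osteopontin, was at 598 CPM in cKO PD and 2386 CPM in cHet PD, 3.99-fold lower (3.56 to 4.48). Mmp12, the macrophage elastase, was at 46.4 CPM in cKO PD and 354 CPM in cHet PD, 7.64-fold lower (5.14 to 11.8). Vegfa, the main signal for vessel sprouting, was at 152 CPM in cKO PD and 822 CPM in cHet PD, 5.42-fold lower (4.34 to 6.84). Nos2, which makes nitric oxide from the same arginine that Arg1 degrades, was at 7.14 CPM in cKO PD and 133 CPM in cHet PD, 18.7-fold lower (7.16 to 69.4), so both arginine-using enzymes were lower.

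Chemokines and cytokines of phagocytes were lower as a group. The 4 measured neutrophil-attracting chemokines were all called lower (median -2.02), and 12 of 13 monocyte and lymphocyte chemokines were lower with 0 higher (median -1.27). Cxcl1 was at 287 CPM in cKO PD and 2146 CPM in cHet PD, 7.46-fold lower (6.36 to 8.81). Cxcl2 was at 3798 CPM in cKO PD and 12540 CPM in cHet PD, 3.3-fold lower (3.15 to 3.46). Ccl5, which draws T cells, was at 96.4 CPM in cKO PD and 723 CPM in cHet PD, 7.5-fold lower (5.7 to 10.1). Ccl7, a monocyte attractant, was at 14.3 CPM in cKO PD and 315 CPM in cHet PD, 22.1-fold lower (11.1 to 51.5). Inflammatory cytokines were lower in 8 of 12 and higher in 2 (median -1.05). The control pair lay opposite, with 7 of 8 higher, 0 lower and a median of 1.12. Tnf was at 177 CPM in cKO PD and 933 CPM in cHet PD, 5.28-fold lower (4.3 to 6.55). The anti-inflammatory cytokine Il10 was at 252 CPM in cKO PD and 881 CPM in cHet PD, 3.5-fold lower (2.93 to 4.2). Il6 lay the other way, at 134 CPM in cKO PD and 47.6 CPM in cHet PD, 2.81-fold higher (1.96 to 4.05), and so did Lif, of the same cytokine family, at 152 CPM in cKO PD and 57.8 CPM in cHet PD, 2.63-fold higher (1.89 to 3.67). Il1b was at 2969 CPM in cKO PD and 2256 CPM in cHet PD and was not called.

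Resident macrophage genes were lower in 13 of 16 and higher in 1 (median -1.17, control pair -0.29). Pf4, a chemokine of tissue macrophages, was at 48.2 CPM in cKO PD and 279.7 CPM in cHet PD, 5.8-fold lower (3.91 to 8.94). Presentation genes of MHC class II were lower in 8 of 9 (median -1.42), with H2-Ab1, a chain of the peptide-presenting molecule, at 534 CPM in cKO PD and 1902 CPM in cHet PD, 3.56-fold lower (3.16 to 4.03), and Ctss, the protease that prepares it, at 2166 CPM in cKO PD and 7944 CPM in cHet PD, 3.67-fold lower (3.45 to 3.9). Monocyte genes were higher in 9 of 17 and lower in 1 (median 0.78, control pair -0.48). This was not particular to phagocytes. In the granulocyte class the same list was higher in 11 of 15 and lower in 3 (median 1.60, control pair -0.98). Ly6c2, the surface marker of inflammatory monocytes, was at 1939 CPM in cKO PD and 315 CPM in cHet PD, 6.15-fold higher (5.46 to 6.94). Vcan, a proteoglycan made by monocytes, was at 468 CPM in cKO PD and 162 CPM in cHet PD, 2.88-fold higher (2.38 to 3.49). Lyz2, the member that was called lower, was at 3653 CPM in cKO PD and 8397 CPM in cHet PD, 2.3-fold lower (2.19 to 2.41).

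Cell cycle genes were higher in 21 of 24 phagocyte members (median 1.75), with Top2a at 245 CPM in cKO PD and 48.5 CPM in cHet PD, 5.05-fold higher (3.68 to 7). After thinning to 1000 UMIs, where 40 and 87 phagocytes remained, that median was -0.96, the opposite direction. In T/NK cells 20 of 25 members were lower and 0 higher (median -1.41, all measured genes -0.09), and 4 had 0 UMIs in 1 library. That class held 119444 UMIs in cKO PD and 427497 in cHet PD, so members lower in cKO PD reach the UMI minimum more easily. At 1.5-fold 9.19% of its 3872 measured genes were higher and 20.5% lower. Of genes of osteoclast differentiation in phagocytes, 3 of 15 were higher and 2 lower. Nfatc1, the master factor of osteoclasts, was at 218 CPM in cKO PD and 67.2 CPM in cHet PD, 3.24-fold higher (2.42 to 4.36). Ctsk, the collagen-degrading protease of osteoclasts, was at 1089 CPM in cKO PD and 536 CPM in cHet PD, 2.03-fold higher (1.81 to 2.27). Acp5, another osteoclast enzyme, was at 62.5 CPM in cKO PD and 71.4 CPM in cHet PD and Dcstamp, needed for their fusion, at 37.5 and 33.2 CPM, neither of them called. Nuclear genes of oxidative phosphorylation were higher in 15 of 39 (median 0.51), and glycolysis and hypoxia genes lower in 9 of 26 (median -0.39). Granulocyte markers in the class summed to 846 against 286 CPM and phagocyte markers themselves to 2489 against 5147 CPM, all 10 of them detected in both libraries.

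**Figure D4:**
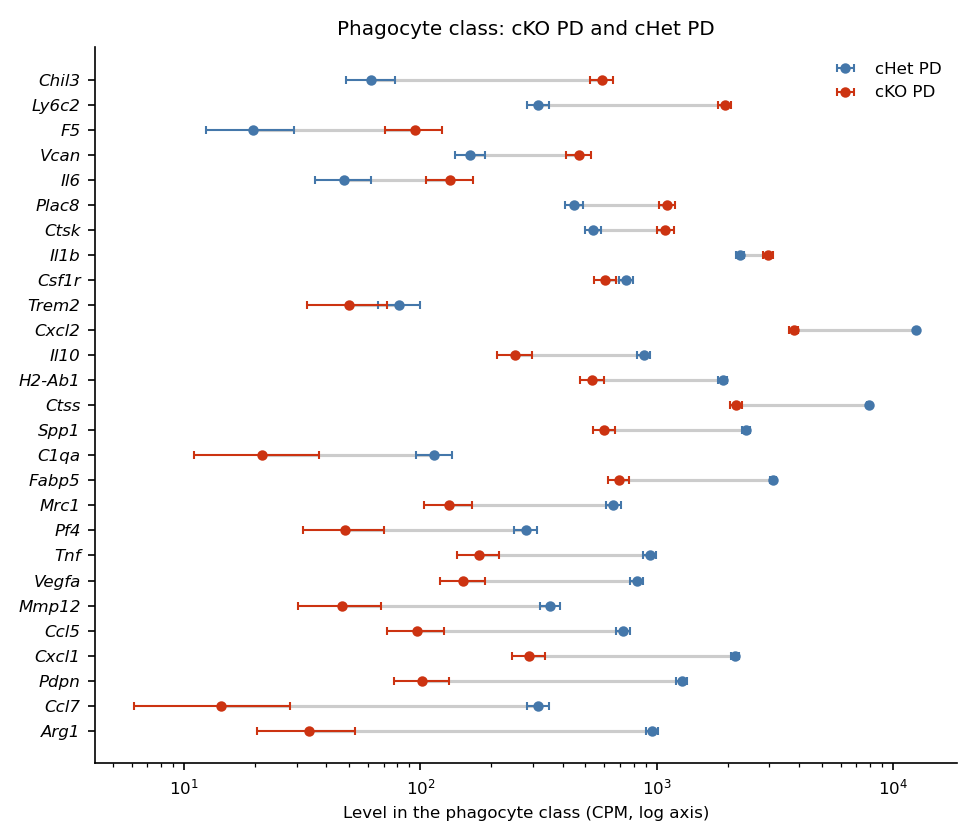
Levels of selected genes in the phagocyte class of cKO PD and cHet PD (CPM on a log axis, points with exact 95% counting intervals, ordered by log2 ratio). Ly6c2 and Chil3 lie to the right in cKO PD, and Arg1, Pdpn and Cxcl1 in cHet PD, with Arg1 at 33.9 against 957 CPM. Csf1r, C1qa and Mrc1 are among the genes that chose the cells of this class, so their levels here are no independent result.

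T/NK cells of cKO PD held fewer transcripts of several cytotoxic and checkpoint genes. The class held 119444 UMIs in cKO PD and 427497 in cHet PD, so genes lower in cKO PD reach the UMI minimum more easily. Type 17 and cytotoxic genes were lower in 6 of 14 and higher in 0 (median -0.41). The control pair lay the same way, with 6 of 13 lower, 2 higher and a median of -0.54. Gzmb, the granzyme that kills target cells, was at 67 CPM in cKO PD and 587 CPM in cHet PD, 8.77-fold lower (4.38 to 20.5). Gzma, a related granzyme, was at 67 CPM in cKO PD and 419 CPM in cHet PD, 6.25-fold lower (3.11 to 14.7). Il17a, the cytokine that links T cells to neutrophil recruitment, was at 469 CPM in cKO PD and 720.5 CPM in cHet PD and was not called. Regulatory and checkpoint genes were lower in 7 of 12 (median -0.87, and 0.08 after thinning). Ctla4, the inhibitory receptor of regulatory T cells, was at 234 CPM in cKO PD and 919 CPM in cHet PD, 3.92-fold lower (2.67 to 5.98). Tnfrsf9, a costimulatory receptor of activated T cells, was at 268 CPM in cKO PD and 964 CPM in cHet PD, 3.6-fold lower (2.51 to 5.33). Foxp3, the factor that defines regulatory T cells, had 0 UMIs in cKO PD against 38 in cHet PD (88.9 CPM), at least 3.54-fold lower against a floor of 3 UMIs, but under the UMI minimum for a call. Keratins were among the genes called lower, with Krt16 at 251 and 1914 CPM. The epithelial marker sum in the class was 6246 against 5125 CPM and the fibroblast marker sum 452 against 2042 CPM, and their part was not tested.

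Endothelium of cKO PD held a larger share of cells with venous markers and fewer MHC class II transcripts, while its activation and adhesion list lay in both directions. Cells with venous activation markers (at least 2 UMIs of Selp, Sele and Ackr1) made up 28.7% in cKO PD and 15.6% in cHet PD, a ratio of 1.84 (1.42 to 2.38), and lymphatic cells 2.85% in cKO PD and 6.87% in cHet PD, a ratio of 0.415 (0.202 to 0.785). After thinning these shares were 27.4% and 14.1% and 0.712% and 4.81%. Sele, one of those marker genes and a selectin on which neutrophils roll, was at 463 CPM in cKO PD and 201 CPM in cHet PD, 2.3-fold higher (2.04 to 2.59). Vwf, which tethers platelets, was at 187 CPM in cKO PD and 73.2 CPM in cHet PD, 2.55-fold higher (2.1 to 3.09). Lrg1, a glycoprotein of inflamed venules, was at 79.6 CPM in cKO PD and 23.8 CPM in cHet PD, 3.35-fold higher (2.43 to 4.65), and at 301 and 186 CPM in the control pair. The activation and adhesion list as a whole had 5 members higher and 6 lower of 28 (median -0.12), and Cxcl9 and Cxcl10 were the members called lower. Angpt2, which loosens vessels for sprouting, was at 61.7 CPM in cKO PD and 142 CPM in cHet PD, 2.3-fold lower (1.8 to 2.96). The 5 measured MHC class II genes were all lower (median -2.68), as they were in the control pair (-2.78), with H2-Ab1 at 14 CPM in cKO PD and 104 CPM in cHet PD. Phagocyte markers in the gate summed to 61.7 against 152 CPM and granulocyte markers to 2689 against 535 CPM, and how far they contributed was not tested.

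The collagen gate of cKO PD held more bone-forming and cartilage cells. Cells with at least 2 UMIs of the bone matrix genes Ibsp, Bglap and Bglap2 made up 24.1% in cKO PD and 3.7% in cHet PD, a ratio of 6.51 (3.51 to 13), and in the control pair 1.48% and 9.36%. Cells with cartilage markers were 25 of 224 (11.2%) against 0 of 351, and in the control pair 5.93% and 17%. Periodontal ligament markers were found in 38.8% in cKO PD and 55% in cHet PD, a ratio of 0.706 (0.542 to 0.914). All 21 measured bone matrix and osteoblast genes were at least 1.5-fold higher (median 1.78, control pair -1.41). Dmp1, a mineralization protein of osteocytes, was at 284 CPM in cKO PD and 14.1 CPM in cHet PD, 20.2-fold higher (13.2 to 32.1). Spp1, osteopontin, was at 3081 CPM in cKO PD and 309 CPM in cHet PD, 9.97-fold higher (9.08 to 11), and in the control pair lay opposite, at 58.9 and 412 CPM. Bone-forming markers summed to 2324 against 504 CPM in this gate, and how far the share of such cells sets these values was not tested.

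The other collagen-gate cells, 153 in cKO PD and 338 in cHet PD after removal of bone-forming and cartilage cells, differed in inflammatory genes. The removal did not take away all bone transcripts: 9 of 12 measured bone matrix genes were still higher and 0 lower (median 1.31), and bone-forming markers summed to 216 against 16 CPM. Inflammatory fibroblast genes were lower in 26 of 37 and higher in 2 (median -1.11, control pair -0.48). Il1rl1, the receptor of interleukin-33, was at 224 CPM in cKO PD and 2451 CPM in cHet PD, 10.9-fold lower (9.06 to 13.3). C3, the central complement protein, was at 48.1 CPM in cKO PD and 534 CPM in cHet PD, 11.1-fold lower (7.41 to 17.4). Ccl2, the main attractant of monocytes, was at 593 CPM in cKO PD and 2577 CPM in cHet PD, 4.35-fold lower (3.86 to 4.91). Cxcl1 was at 1516 CPM in cKO PD and 4005 CPM in cHet PD, 2.64-fold lower (2.45 to 2.85). Tnfaip6, which cross-links hyaluronan in inflamed matrix, was at 322 CPM in cKO PD and 1841 CPM in cHet PD, 5.71-fold lower (4.87 to 6.73). Il6 was at 1004 CPM in cKO PD and 803 CPM in cHet PD and was not called. The 4 measured neutrophil-attracting chemokines were all lower (median -1.76).

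Fibroblast identity genes were lower in 17 of 24 (median -1.31), and the control pair lay the same way (median -1.04). Cilp, a matrix protein of connective tissue, was at 16 CPM in cKO PD and 525 CPM in cHet PD, 32.8-fold lower (16.6 to 76.2). Gsn, an actin-severing protein, was at 443 CPM in cKO PD and 3053 CPM in cHet PD, 6.9-fold lower (6.03 to 7.93). Of the 228 genes called lower, 134 could be tested in the control pair, and 64 of these were called lower there too. Igf1, a growth factor for bone and muscle, was at 447 CPM in cKO PD and 81.8 CPM in cHet PD, 5.46-fold higher (4.39 to 6.82). Myh11, the smooth muscle myosin, was at 292 CPM in cKO PD and 19.1 CPM in cHet PD, 15.3-fold higher (10.4 to 23.4), and mural markers as a whole (8 of 8 detected) summed to 9668 against 3143 CPM. Granulocyte markers summed to 3597 against 102 CPM, and their part was not tested. Among regulators of bone cells, Tnfsf11, the osteoclast-inducing ligand RANKL, was at 42.1 CPM in cKO PD and 43 CPM in cHet PD and was not called. Its decoy receptor Tnfrsf11b, osteoprotegerin, was at 24 CPM in cKO PD and 92.2 CPM in cHet PD, 3.84-fold lower (2.13 to 7.59), from 12 and 150 UMIs, but with the bone-forming and cartilage cells kept it was at 68.4 and 88.1 CPM and was not called. Csf1, the macrophage and osteoclast growth factor, was at 128 CPM in cKO PD and 435 CPM in cHet PD, 3.4-fold lower (2.63 to 4.46). Mmp3, a matrix-degrading stromelysin, was at 146 CPM in cKO PD and 859 CPM in cHet PD, 5.88-fold lower (4.64 to 7.54), and Mmp13, the collagenase of bone and gingiva, at 1670.5 and 1179 CPM and was not called.

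The keratinocyte gate, the largest, had the smallest share of called genes among the 4 gates. Alarm and antimicrobial genes were lower in 19 of 39 and higher in 4 (median -0.55, all measured genes 0.03, control pair 0.25). Il24, a cytokine of stressed skin, was at 9.31 CPM in cKO PD and 69.5 CPM in cHet PD, 7.47-fold lower (6.13 to 9.17). Il33, an alarmin released by damaged epithelium, was at 8.52 CPM in cKO PD and 56.8 CPM in cHet PD, 6.68-fold lower (5.43 to 8.29). Sprr1a, a cornified envelope protein raised on wounding, was at 314 CPM in cKO PD and 961 CPM in cHet PD, 3.07-fold lower (2.96 to 3.18). Defb1, an antimicrobial defensin, was at 102 CPM in cKO PD and 333 CPM in cHet PD, 3.25-fold lower (3.06 to 3.46). Krt16, the keratin of wound edges, was at 1216 CPM in cKO PD and 2666 CPM in cHet PD, 2.19-fold lower (2.15 to 2.23). Cxcl5, which attracts neutrophils, lay the other way, at 205 CPM in cKO PD and 82.2 CPM in cHet PD. Defb3, another defensin, was at 173 CPM in cKO PD and 68.6 CPM in cHet PD and was also called higher. Lcn2 and Camp, genes that granulocytes also express, were the other members called higher. Granulocyte markers in this gate summed to 2783 against 1840.1 CPM, and their part was not tested.

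The states of the keratinocyte gate also differed in their shares. Cells with at least 2 UMIs of Odam, a secreted protein of the junctional epithelium that seals the gum to the tooth, made up 13.4% in cKO PD and 7.73% in cHet PD, a ratio of 1.73 (1.5 to 2), and in the control pair 2.16% and 0.962%. The list of junctional and enamel-related secreted genes lay in both directions, with 6 of 16 measured members higher and 6 lower, 4 and 3 of them called (median -0.31). Among them BC037156 was at 12041 CPM in cKO PD and 5225 CPM in cHet PD, 2.3-fold higher (2.29 to 2.32). Cells with the mucosal keratins Krt4 and Krt13 made up 3.28% in cKO PD and 9.41% in cHet PD, a ratio of 0.349 (0.28 to 0.432), in the same direction as the control pair with 13.4% and 23%. Cells with Serpinb2 and Aqp3, which mark inflamed keratinocytes, made up 64% in cKO PD and 87.2% in cHet PD, and the control pair lay the other way with 62.4% and 57.3%. The cHet PD keratinocytes were the deeper, and the shares after thinning were 32.5% and 57.4% for Serpinb2 and Aqp3, 7.94% and 4.79% for Odam and 0.697% and 1.48% for Krt4 and Krt13. For the spinous keratins Krt1 and Krt10 depth turned the order, with 42.4% and 49% before and 25.7% and 20.4% after thinning. Serpinb2 itself, a protease inhibitor, was at 112 CPM in cKO PD and 406 CPM in cHet PD, 3.63-fold lower (3.42 to 3.85). Gjb2, a gap junction protein of activated epidermis, was at 432 CPM in cKO PD and 1427 CPM in cHet PD, 3.3-fold lower (3.2 to 3.4). Cdo1, which breaks down cysteine, was at 261 CPM in cKO PD and 44.7 CPM in cHet PD, 5.83-fold higher (5.44 to 6.26), and lay the same way in the control pair, at 163 and 33.1 CPM. Sostdc1, an inhibitor of bone morphogenetic proteins, was at 118 CPM in cKO PD and 33 CPM in cHet PD, 3.58-fold higher (3.28 to 3.91). Barrier genes were lower in 14 of 38 and higher in 3 (median -0.29).

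Ligands of α9β1 lay in both directions. In phagocytes 6 of 13 members of the receptor and ligand list were lower and 2 higher (median -0.54), with Adam8, a membrane protease and ligand, at 309 CPM in cKO PD and 642 CPM in cHet PD, 2.08-fold lower (1.76 to 2.47). Fn1, fibronectin, was at 2164 CPM in cKO PD and 1255 CPM in cHet PD there and was not called. In endothelium Tnc, tenascin-C, was at 44.5 CPM in cKO PD and 128 CPM in cHet PD, 2.88-fold lower (2.17 to 3.88), and Npnt, the basement membrane ligand nephronectin, at 105 CPM in cKO PD and 39 CPM in cHet PD, 2.7-fold higher (2.08 to 3.52). Vcam1 was at 264 CPM in cKO PD and 154 CPM in cHet PD and was not called. In collagen-gate cells after removal of bone-forming and cartilage cells Tnc was at 565 CPM in cKO PD and 1034 CPM in cHet PD, not called. Spp1 was there at 635 CPM in cKO PD and 80.6 CPM in cHet PD, 7.88-fold higher (6.41 to 9.74), the reverse of the direction in phagocytes. In these cells 9 of 12 measured bone matrix genes were still higher (median 1.31), and how far bone transcripts set the Spp1 level was not tested.

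Over the whole Ptprc gate 3.67% of 6981 genes were called higher and 5.39% lower, and at 1.5-fold 8.65% and 12.8% of 9642. Among the genes furthest apart, Camp at 1704 CPM in cKO PD and 60.4 CPM in cHet PD, Ltf at 2983 and 118 CPM and Ngp at 14870 and 761 CPM are granule genes, and the gate held more granulocytes. Pdpn at 40.3 and 509 CPM and Mrc1, the mannose receptor, at 34.3 and 251 CPM are phagocyte genes. Without the granulocyte class 86 genes in place of 256 were called higher and 229 in place of 376 lower. Of the genes called in the gate, 168 of the higher and 247 of the lower could be tested in the control pair, where 14 and 15 were called the same way and 51 and 25 the opposite way.

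Over all kept cells genes called higher in cKO PD included Car6 at 4171 CPM in cKO PD and 61.6 CPM in cHet PD, Wfdc18, a secreted gland protein, at 1911 and 38.8 CPM, and Ltf, lactoferrin of granules and glands, at 4733 and 111 CPM. The lowest ratio among the named genes was that of the mucosal keratin Krt4, at 113 CPM in cKO PD and 1231 CPM in cHet PD, 10.9-fold lower (10.5 to 11.4), which was also lower in cKO control, at 718 against 2169 CPM. Ccl2 was at 56.5 CPM in cKO PD and 227 CPM in cHet PD, 4.01-fold lower (3.78 to 4.27), and Serpinb2 at 77.3 CPM in cKO PD and 352 CPM in cHet PD, 4.55-fold lower (4.33 to 4.8).

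**Figure D5:**
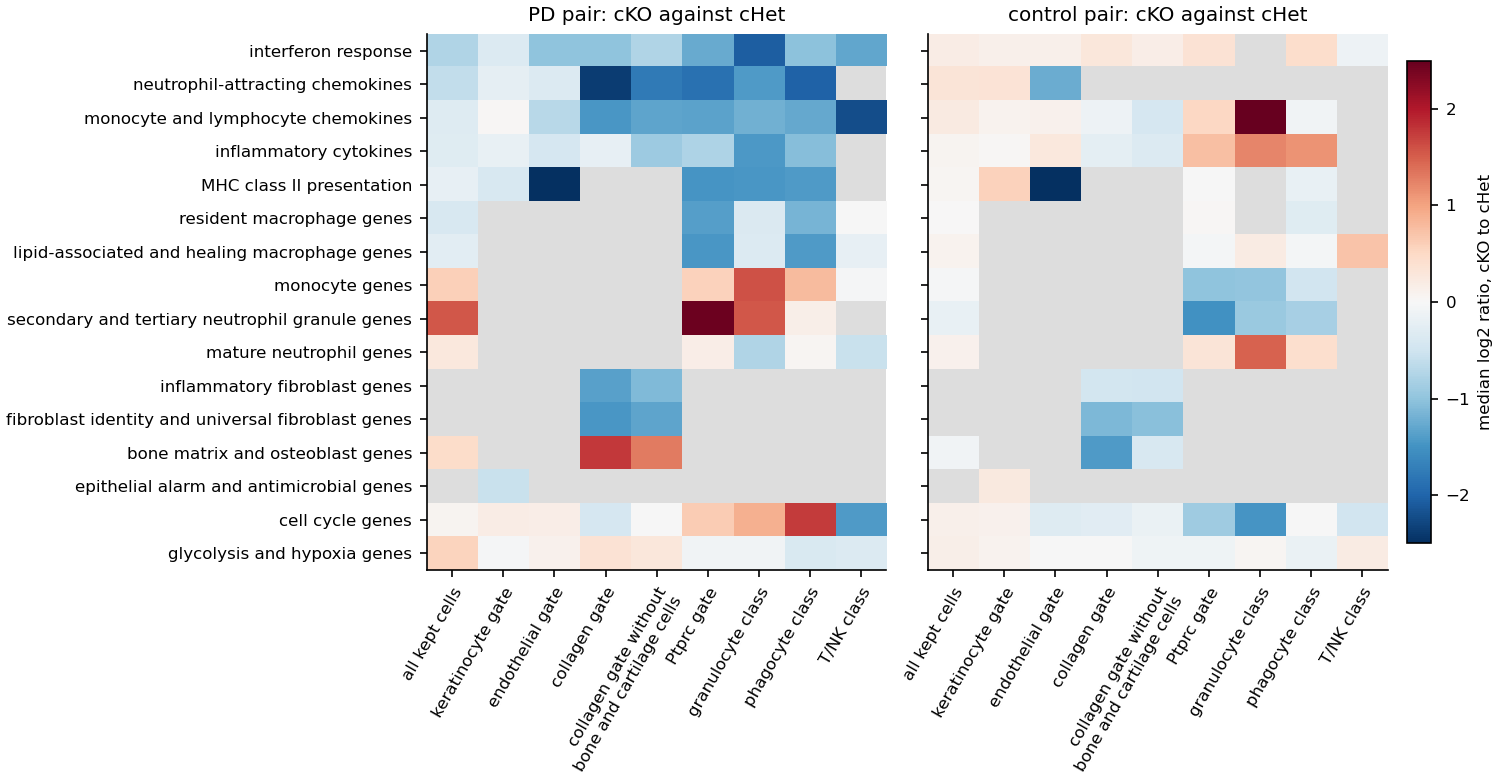
Median log2 ratio (cKO to cHet, 10 CPM added) of 16 gene lists in each gate and class, for the PD pair and the control pair, in colour, and grey where a list was not read or had under 4 measured members. The interferon-response line is below 0 in every PD column and between -0.13 and 0.44 in the control columns with a value, and the granule and bone matrix lines change sign between the pairs.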

How the data were processed

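Single-cell transcript counts of 4 gingiva libraries, 1 per group, were used, and the PD pair was compared. The deposited files hold whole UMI counts per gene and barcode. Per the submitters' processing notes, the authors used fastp and STARsolo 2.7.10a with mm10. The labels name 10x Genomics in one place and BD Rhapsody in another, and barcodes are 27 bases long. How barcodes were filtered before deposit is not given in the sources used here. The files list 31253 genes, and 43 symbols belong to more than 1 gene.

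Barcodes with at least 200 genes and at most 20% mitochondrial UMIs were kept, and UMIs were summed per gate or class and scaled to CPM. Intervals were Poisson for levels, Clopper-Pearson for shares and conditional binomial for ratios. No doublet caller was run. The members, 39 gene lists and 21 marker lists were chosen with earlier results of these data known. The comparisons within leukocyte classes, within collagen-gate cells without bone and cartilage markers, and without barcodes held by both libraries were chosen after seeing the data.

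Named genes were up to 10 called genes in each direction with the largest log2 ratio, found in at least 10% of cells of the higher library and, in gates, at a CPM of at least 0.5 of the highest gate of that library, without mitochondrial, ribosomal, hemoglobin, immunoglobulin, T cell receptor, predicted and sex-linked genes. To these were added 17 fixed genes, gate and class genes, and up to 4 measured members per list and direction. Itga9 position came from GENCODE on mm10 and promoter bases from RefSeq on GRCm38.p6. Scaling by TMM (edgeR 4.0.16, R 4.3.3) was an alternative only. Scripts ran in Python 3.11.15 with numpy 2.4.6, scipy 1.17.1 and pandas 2.3.3, and were tested on simulated data. Some genes that the named-gene rule takes are not reported here.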

Additional observations from a re-analysis of the deposited data

Results flagged for a closer look

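The results below lay in opposite directions in the PD pair and the control pair, in log2 ratios of cKO to cHet unless a share is named. Each pair is 1 library against 1, the pairs differ in the lowest UMI total per barcode, and in every case the difference was not tested.

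In the Ptprc gate Cxcl1 was at -2.75 in the PD pair and 2.29 in the control pair. The median of the inflammatory cytokines there was -0.772 and 0.752. Primary neutrophil granule genes had medians of 2.19 and -2.84, and secondary and tertiary granule genes 2.46 and -1.52. Regulatory T cell and checkpoint genes had medians of -1.29 and 0.629, and cell cycle genes 0.635 and -0.886.

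In the collagen gate Spp1, which encodes osteopontin, was at 3.28 in the PD pair and -2.62 in the control pair, and bone matrix and osteoblast genes had medians of 1.78 and -1.41. The share of bone-forming cells in this gate had a ratio of 6.51 in the PD pair and 0.158 in the control pair. Cartilage cells made up 11.2% of the gate in cKO PD and none in cHet PD, while the control ratio was 0.349. The endothelial share of kept cells had a ratio of 0.728 in the PD pair and 1.76 in the control pair.

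In the keratinocyte gate the shares of 4 states lay in opposite directions. Cells with Serpinb2 and Aqp3 had a ratio of 0.733 in the PD pair and 1.09 in the control pair, and cells with wound keratins 0.827 and 1.09. Cycling cells had ratios of 0.853 and 1.1, and cells with the palatal keratins Krt76 and Krt24 1.46 and 0.848. After thinning, the PD ratio of cycling cells was 0.955 (0.793 to 1.15), so its direction was not resolved at equal depth. The control ratio of cycling cells was then 1.49. The other states named here kept their opposite directions after thinning.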

How the results depend on the processing

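No paired analysis was possible because a single library stood for each genotype and treatment. TMM scaling, a mitochondrial cap of 10% and leaving out shared barcodes each kept 64 of 64 list medians in direction and within their allowed spread, thinning to 1000 UMIs 53 of 64. The cause of each change below was not tested.

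With 1 CPM added, genes called higher numbered 687 in place of 230 over all cells and 234 in place of 57 in the keratinocyte gate, and genes called lower 355 in place of 112, 232 in place of 74, 253 in place of 153 in endothelium and 658 in place of 376 in the Ptprc gate. After thinning, with fewer UMIs tested, 25 in place of 91 were higher and 81 in place of 153 lower in endothelium, 31 in place of 168 and 100 in place of 266 in the collagen gate, and 114 in place of 256 higher in the Ptprc gate. A minimum of 20 UMIs gave 141 higher in endothelium and 270 in the collagen gate, and no minimum 148 and 329. Without granulocytes the Ptprc gate gave 86 and 229, and without bone and cartilage cells the collagen gate gave 105 higher.

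Share ratios moved with depth. At the control floor of 1501 UMIs they were 0.232 for T/NK cells, 3.25 for granulocytes, 0.623 for endothelium and 0.903 for keratinocytes, and after thinning 0.379, 1.75, 0.633 and 1.08. Doubled gate thresholds gave 0.402 for T/NK cells and 0.894 for the Ptprc gate.

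Log2 ratios of the fixed genes whose interval excluded 0 and whose sign then changed, and list medians that turned, were as follows. Ratios whose interval included 0 also changed sign under some alternatives and are not listed. After thinning, Il10 was at 0.32 (from -1.66) and Il1b at -0.68 (from 0.39) in endothelium, Il6 at 0.053 (from -0.20) in the collagen gate and -0.070 (from 1.38) in granulocytes, Lyz2 at 0.45 (from -0.56) in the Ptprc gate, and Mmp13 at 0.026 (from -0.08) over all cells and -0.59 (from 0.82) in phagocytes. The cell cycle median was then -0.96 in phagocytes (from 1.75) and the regulatory T cell median 0.075 in T/NK cells (from -0.87). With doubled thresholds endothelium gave Cxcl2 0.044 (from -0.94), Il10 0.18, Lyz2 0.53 (from -0.79), Spp1 0.54 (from -0.61) and Tnf 0.58 (from -0.56). With cells in exactly 1 gate, Il10 was at 0.0029, Il1b at -0.67 and Tnf at 0.11 in endothelium, Il6 at 0.055 in keratinocytes (from -0.52) and -0.77 in granulocytes, and Mmp13 at -0.042 in phagocytes. With the mean of the cells' own CPM, Arg1 was at 0.017 in keratinocytes (from -0.36), Il1b at -0.46 in endothelium, Il6 at 0.24 in the collagen gate, Lyz2 at 0.43 in the Ptprc gate and Mmp13 at 0.23 over all cells. Il1b was at 0.39 in the Ptprc gate without granulocytes (from -0.56), Il6 at 0.080 in the collagen gate without bone-forming cells, Cxcl1 at -0.00043 in keratinocytes with TMM (from 0.11), and Mmp13 at 0.060 over all cells with the 10% cap.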
